A study of Mus musculus with 2 samples.

Results

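Annexins are proteins that bind acidic phospholipids of membranes when calcium rises, through a conserved core of repeats, while a variable N-terminal tail gives each member its own partners. In neutrophils they are known for their link to granule fusion, to membrane repair and, for annexin A1, to the ending of inflammation. The annexin genes described here are Anxa1 to Anxa9 and Anxa11, chosen by symbol. Of these 10 genes, 9 had at least 1 probe set (a group of oligonucleotide probes read as 1 value) assigned to them alone, out of 18194 genes measured in this way. They were covered by 20 probe sets. Anxa11 was not analysed here, because the probe set that lists it lists other genes too.

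The RNA came from neutrophils of C57BL/6 mice, freshly taken from bone marrow without any treatment. Live cells high in Gr-1, a surface antigen of granulocytes that other myeloid cells also carry, and negative for CD48 were collected on a flow cytometer, in 2 experiments that the series calls independent. Each experiment gave 1 array, called replicate 1 and replicate 2 after the titles. There is 1 group, so no condition was compared, and neither the age and sex of the mice nor the number of mice per sample is given in the sources used here. The difference between arrays measures only the spread of these 2 samples, which may be technical, and it has no test.

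Values are MAS5 signals, a linear brightness in arbitrary units. The background limit of an array is the 95th percentile of 87 probe sets of sensory receptor genes (olfactory, vomeronasal, trace amine and taste), which was 131 for replicate 2 and 108 for replicate 1. Probe sets brighter than the limit of each array are called above background. A single such probe set suffices for its gene, and each gene is read on its brightest one. Probe sets differ in how strongly they bind, so no gene's level is set against another's. Of the markers of the labelled cell type, neutrophils, 10 of 10 measured genes were above background, where 40.4% of all genes were. Of 63 measured markers of other cells, 16 (25.4%) were above it. These cells were monocytes, macrophages, B, T and NK, erythroid, megakaryocyte, eosinophil and mast, progenitor and stromal cells. By list, the share ran from 1 of 7 (14.3%) for B cells to 3 of 7 (42.9%) for monocytes and for erythroid cells. Macrophages had 3 of 8 (37.5%). The monocyte, erythroid and macrophage lists were thus near the share of all genes. How many other cells the samples held was not tested.

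Of the 9 measured annexin genes, 7 were above background on both arrays: Anxa1, Anxa2, Anxa3, Anxa4, Anxa5, Anxa6 and Anxa7. That is 77.8% of the annexin genes, where 40.4% of all 18194 genes were above background. The set was chosen with earlier results of these data known, so this share is only descriptive. By probe set the count was 11 of 20, or 55.0%, where 35.5% of all 34958 single-gene probe sets were above it. Anxa8 and Anxa9 were not above background on both arrays. In a whole-cell RNA sample, fewer cells of a type and less RNA per cell cannot be told apart.

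**Figure D1:**
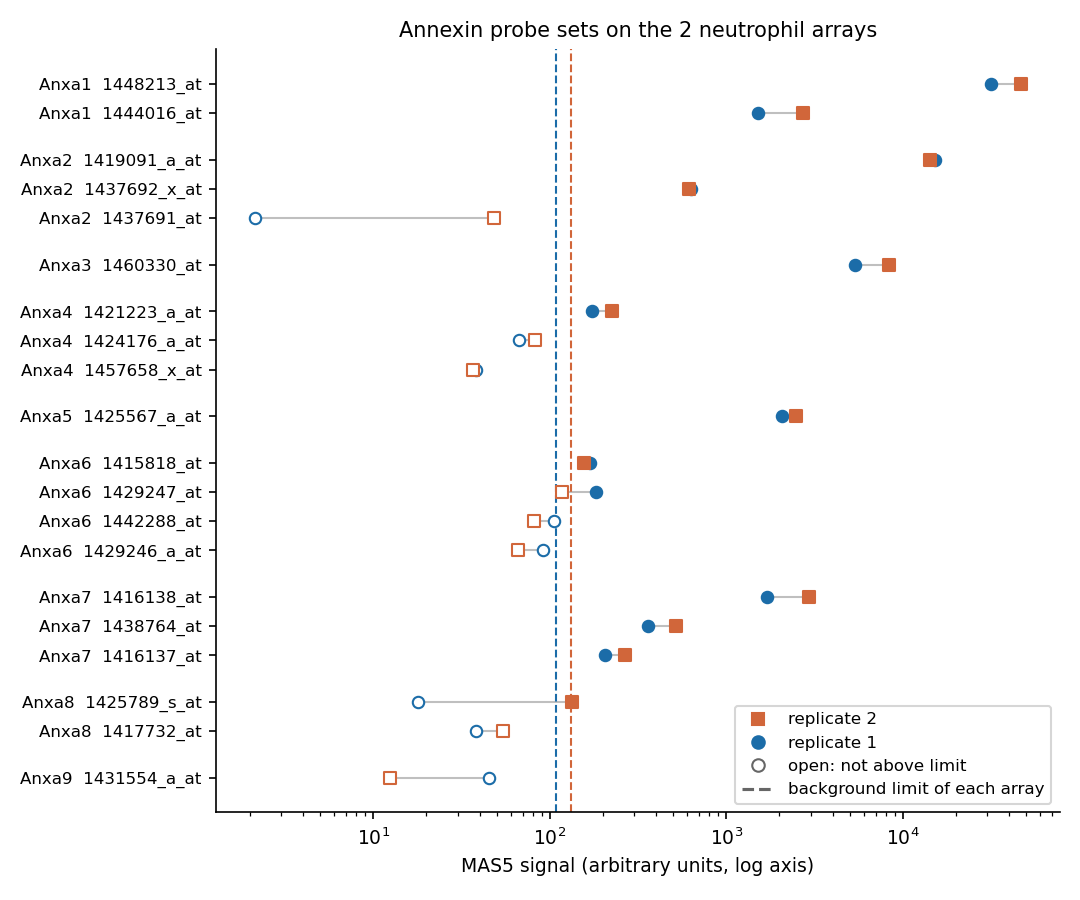
MAS5 signal (log axis) of each of the 20 annexin probe sets, with replicate 2 as squares and replicate 1 as circles, open where the signal was not above the limit of its array (dashed lines at 131 for replicate 2 and 108 for replicate 1). All probe sets of Anxa1 and Anxa7 and the single ones of Anxa3 and Anxa5 lay right of both lines, and those of Anxa4 and Anxa6 lay around them.

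Anxa1 encodes annexin A1, the glucocorticoid-regulated protein whose N-terminal part acts on formyl peptide receptors and limits neutrophil recruitment. Its brightest probe set, 1448213_at, had signals of 46958 on replicate 2 and 31565 on replicate 1, a log2 signal of 15.23 ± 0.41 (SD, n = 2). The second, 1444016_at, had 2705 on replicate 2 and 1517 on replicate 1, or 10.98 ± 0.59 (SD, n = 2). Both were far above the limit, and both were brighter on replicate 2, by 0.57 and 0.83 on the log2 scale.

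Anxa2 encodes annexin A2, which forms a complex with the S100a10 protein at the plasma membrane and binds plasminogen and its activator there. Probe set 1419091_a_at had signals of 14293 on replicate 2 and 15190 on replicate 1, a log2 signal of 13.85 ± 0.06 (SD, n = 2). Probe set 1437692_x_at had 612 on replicate 2 and 633 on replicate 1. The arrays were close to each other on both, with differences of -0.09 and -0.05 on the log2 scale. The third probe set, 1437691_at, was not above background, with 48.1 on replicate 2 and 2.13 on replicate 1.

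Anxa3 encodes annexin A3, known from human neutrophils as a cytosolic protein that aggregates granules in the presence of calcium. Its only probe set, 1460330_at, had signals of 8296 on replicate 2 and 5382 on replicate 1, or 12.71 ± 0.44 on the log2 scale (SD, n = 2). Anxa5 encodes annexin A5, the anticoagulant protein used in the laboratory as a stain for exposed phosphatidylserine. It was also read on a single probe set, 1425567_a_at, with signals of 2472 on replicate 2 and 2055 on replicate 1 (11.14 ± 0.19, SD, n = 2). Both genes were well above the limit on each array.

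Anxa7 encodes annexin A7, or synexin, named for bringing secretory granules of bovine chromaffin cells together. All 3 of its probe sets were above background. Probe set 1416138_at had signals of 2954 on replicate 2 and 1698 on replicate 1, 1438764_at had 515 on replicate 2 and 360 on replicate 1, and 1416137_at had 267 on replicate 2 and 206 on replicate 1. Each was brighter on replicate 2, by 0.80, 0.52 and 0.38 on the log2 scale. The brightest averaged 11.13 ± 0.56 (SD, n = 2).

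Anxa4 and Anxa6 lay near the limit, and their probe sets gave different calls. Anxa4 encodes a membrane-binding annexin best known from epithelia. Of its 3 probe sets 1 was above background, 1421223_a_at, with 226 on replicate 2 and 173 on replicate 1 (7.63 ± 0.27 on the log2 scale, SD, n = 2). The others had 82.2 and 36.8 on replicate 2 and 67.2 and 38.2 on replicate 1. Anxa6 encodes the annexin with a duplicated core, which binds the Ras GTPase-activating protein encoded by Rasa1. Of its 4 probe sets 1 was above background, 1415818_at, with 156 on replicate 2 and 169 on replicate 1 (7.34 ± 0.08, SD, n = 2). Another, 1429247_at, was above the limit on replicate 1 alone, with 118 on replicate 2 and 182 on replicate 1. Anxa6 was no longer above background with the 99th percentile of the receptor probe sets as the limit, and neither Anxa4 nor Anxa6 was when all probe sets of a gene were averaged.

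Anxa8, known for high levels in human acute promyelocytic leukaemia, and Anxa9, whose product lacks the usual calcium-binding residues, were the members not called. The Anxa8 probe set 1425789_s_at had 134 on replicate 2 and 18.0 on replicate 1, so it passed the limit of 131 on replicate 2 by a narrow margin. No minimum fold between arrays is read from it, since the limits of the 2 arrays differ too (108 on replicate 1). The other Anxa8 probe set, 1417732_at, had 54.0 on replicate 2 and 38.4 on replicate 1. Anxa9 had 12.5 on replicate 2 and 45.4 on replicate 1. These signals lie in the range of the receptor probe sets, so an absence of the transcripts cannot be read from them. The remaining mouse annexin genes on the array, Anxa10 and Anxa13, are outside the set; their 3 probe sets reached a signal of at most 29.2 on either array.

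The calls per gene rest on probe sets of unequal kind. Of the 6 genes with several probe sets, 3 had probe sets that agreed on the call (Anxa1, Anxa7 and Anxa8) and 3 did not (Anxa2, Anxa4 and Anxa6). Names ending in _a_at mark probe sets shared by transcripts of 1 gene, and those ending in _s_at or _x_at can bind transcripts of several genes. Without these 3 kinds, 6 annexin genes could be read and 4 were above background (Anxa1, Anxa3, Anxa6 and Anxa7). Of all 16593 genes that could be read in this way, 37.3% were above background. Anxa4 and Anxa5 then had no probe set left, nor did Anxa9. Anxa2 was left with 1437691_at alone and was no longer called, so its call rests on 1 probe set of the first kind and 1 of the last.

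The DNA before the transcription start is shown for 4 annexin genes that have a single start in the RefSeq promoter table (GRCm38.p6), so that 3 genes above background can be set beside Anxa8, which was not. The table held 11 promoters of 8 of the 10 genes, and Anxa3 and Anxa6 were not matched. Each line gives the 150 bases before the start, 5′ to 3′ on the strand of the gene. Capitals mark matches to 5 motifs searched on both strands over the 250 bases before the start. The TATA box was searched as the letters TATAAA, and the GC box of Sp1 as the letters GGGCGG. For factors of myeloid cells, the letters searched were TGANTCA for AP-1 proteins, then TTGCNNAA for C/EBP proteins, and lastly GAGGAA for the factor PU.1. No match overlapped a match to another motif.
Anxa1, chr19:20390672-20390821, minus strand: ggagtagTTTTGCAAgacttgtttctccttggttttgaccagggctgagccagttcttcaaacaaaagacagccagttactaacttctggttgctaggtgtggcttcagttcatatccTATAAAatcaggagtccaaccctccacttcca
Anxa2, chr9:69453533-69453682, plus strand: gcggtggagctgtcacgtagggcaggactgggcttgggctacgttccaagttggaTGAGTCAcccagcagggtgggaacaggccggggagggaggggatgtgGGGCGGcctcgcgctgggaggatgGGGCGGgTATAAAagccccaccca
Anxa5, chr3:36475888-36476037, minus strand: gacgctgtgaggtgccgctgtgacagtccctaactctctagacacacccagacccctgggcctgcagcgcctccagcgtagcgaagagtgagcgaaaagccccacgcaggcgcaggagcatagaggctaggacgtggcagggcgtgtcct
Anxa8, chr14:34085829-34085978, plus strand: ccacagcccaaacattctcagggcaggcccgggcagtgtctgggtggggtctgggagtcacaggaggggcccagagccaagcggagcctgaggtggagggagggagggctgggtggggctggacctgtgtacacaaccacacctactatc

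The Anxa1 promoter held TATAAA from 32 to 27 bases before the start and a match to TTGCNNAA, on the other strand, from 143 to 136 bases before it. A GAGGAA lay further up, from 227 to 222 bases before the start, outside the part shown. The Anxa2 promoter held TATAAA from 17 to 12 bases before the start, 3 copies of GGGCGG (2 of them in the part shown, the nearest from 24 to 19 bases before it) and TGAGTCA from 95 to 89 bases before it. None of the 5 motifs was found before Anxa5 or Anxa8. Of the 11 annexin promoters, TATAAA was in 2 (Anxa1 and Anxa2), where 12.4% of all 32851 promoters held it. GGGCGG was in 4, those of Anxa2 and Anxa11 and both of Anxa7, whose windows overlap and share 1 of the sites, and 32.7% of all promoters held it. TTGCNNAA was in 2 (Anxa1 and Anxa4; all promoters 9.56%), GAGGAA in 3 (Anxa1, Anxa9 and Anxa11; all promoters 23.3%) and TGANTCA in 1 (Anxa2; all promoters 6.75%). The Anxa1 promoter was 46.0% G and C with 2 CpG pairs, that of Anxa2 62.4% with 9, that of Anxa5 58.8% with 13 and that of Anxa8 58.0% with 4, where the median of all promoters was 52.4% with 6. A match describes the letters and is not evidence that a factor binds.

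Between the experiments, the annexin genes above background differed by -0.12 to 0.80 on the log2 scale (replicate 2 minus replicate 1). In 5 of 7 genes replicate 2 was higher with the deposited scaling, a count that was 5 after median scaling, 4 after quantile normalization and 1 after scaling to the hybridisation controls. Over all genes above background, 56.3% were higher on replicate 2 with the deposited scaling, 44.5% after median scaling, 54.7% after quantile normalization and 8.21% after scaling to the hybridisation controls. The median difference of the 7 genes was 0.39, and that of all 7354 genes above background was 0.07, with an SD of 0.50. No annexin gene above background differed over 2-fold (0 of 7), where 5.40% of all genes above background did.

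**Figure D2:**
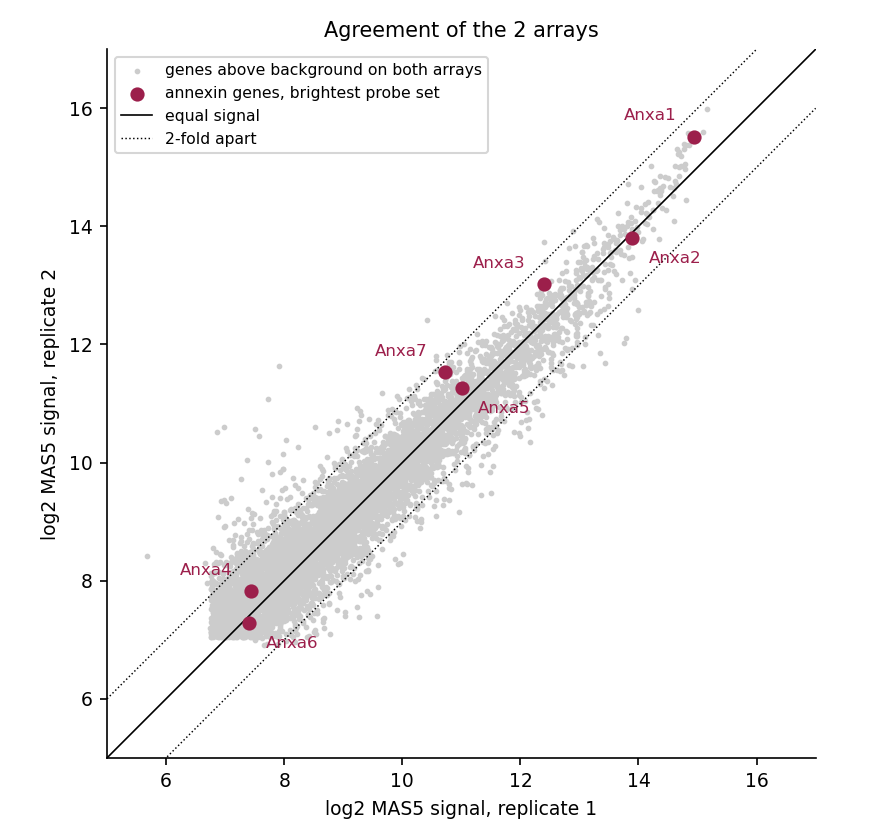
Log2 MAS5 signal on replicate 2 (vertical axis) and replicate 1 (horizontal axis) of the 7 annexin genes above background (red) and of all 7354 genes above background (grey), each on its brightest probe set. The solid line marks equal signal and the dotted lines a 2-fold difference; all 7 annexin genes lie between the dotted lines.

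The single genes took different places in this range. The difference of Anxa7, 0.80 on its brightest probe set, was above that of 93.4% of all genes above background. Anxa3 at 0.62 was above 89.0% of them, Anxa1 at 0.57 above 87.0%, Anxa4 at 0.39 above 76.7% and Anxa5 at 0.27 above 67.7%. Anxa2 at -0.09 was above 36.0% and Anxa6 at -0.12 above 32.8%. Anxa2 and Anxa6 were thus below the median of all genes, and after quantile normalization Anxa1 was as well. The probe sets above background of a gene had the same sign where there were several: 2 of 2 for Anxa1, 3 of 3 for Anxa7 and 2 of 2 for Anxa2. They share their gene and their arrays and are not separate replicates.

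These differences depend on how the arrays are scaled. The authors' signals had the same trimmed mean of 250.0 on both arrays. Median scaling moved the median of all genes above background to -0.06, and scaling to 18 hybridisation control probe sets (RNAs added to the sample before hybridisation) moved it to -0.65. With the control scaling Anxa7 alone remained above 0, at 0.08, while Anxa3 was at -0.10, Anxa1 at -0.15, Anxa4 at -0.34, Anxa5 at -0.46, Anxa2 at -0.81 and Anxa6 at -0.84. Relative to the median of all genes, the annexin median was 0.31 higher with the deposited scaling and 0.25 higher after quantile normalization. Median and control scaling multiply each array by 1 factor and cannot change this value. Anxa1 was at 0.00 after quantile normalization, since its brightest probe set held the same rank on both arrays.

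**Figure D3:**
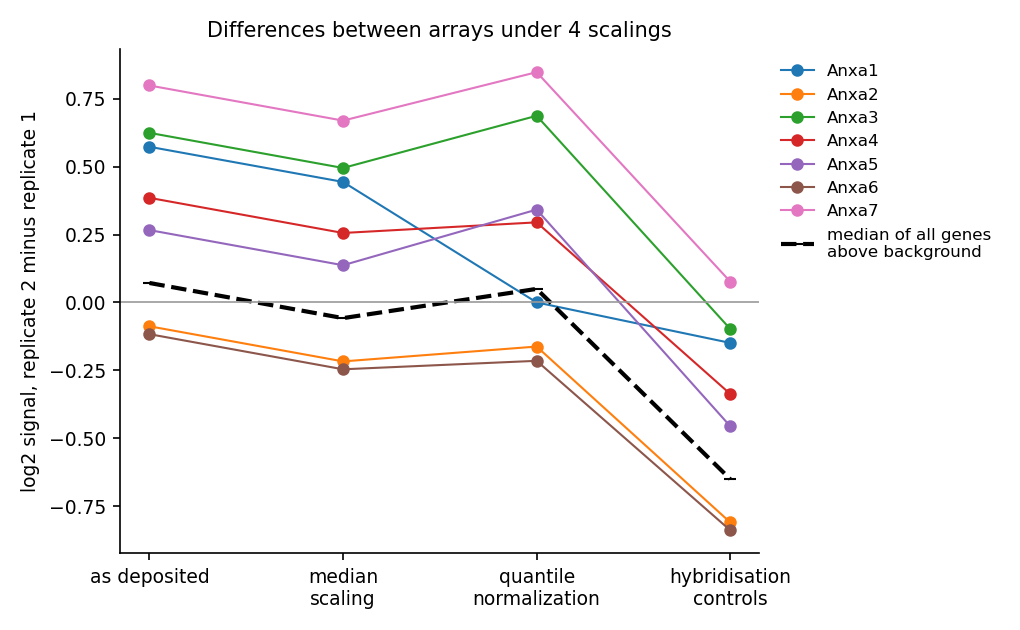
Log2 difference, replicate 2 minus replicate 1, of the 7 annexin genes above background (coloured points) and the median of all genes above background (black dashes), under the deposited scaling and 3 others. The order of most genes is kept while all values shift down with the hybridisation controls, and Anxa1 moves to 0.00 with quantile normalization.

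Markers of cell state and of other cells were read on the same arrays. Replicate 2 was the brighter array for all 8 proliferation genes above background, with the deposited scaling (all genes 56.3%) and the control scaling (all genes 8.21%). Their median log2 difference was 2.64, and 1.91 after scaling to the hybridisation controls. The summed signal of the 11 measured genes was 9882 on replicate 2 and 1578 on replicate 1. Of the 10 neutrophil genes, 8 were brighter on replicate 2 with the deposited scaling (all genes 56.3%) and 3 with the control scaling (all genes 8.21%). With the deposited scaling, the receptor genes Cxcr2 at -1.16 and Csf3r at -0.77 were not. The list's median difference was 0.55 with the deposited scaling and -0.18 with the control scaling, and its summed signal was 345346 on replicate 2 and 240677 on replicate 1. Of 7 monocyte genes 3 were above background, with Csf1r at 1928 on replicate 2 and 5020 on replicate 1, Ccr2 at 220 on replicate 2 and 157 on replicate 1, and F13a1 at 231 on replicate 2 and 264 on replicate 1. The monocyte sum, 2723 on replicate 2 and 5848 on replicate 1, thus rests mostly on Csf1r. For 8 macrophage genes, with Adgre1, C1qb and Vcam1 above background, the sum was 902 on replicate 2 and 1608 on replicate 1. For 6 stem and progenitor genes, with Kit alone above background, the sum was 826 on replicate 2 and 467 on replicate 1. All sums here are with the deposited scaling. With the control scaling, the median difference of the monocyte genes above background moved from -0.19 to -0.91. That of the macrophage genes moved from -0.65 to -1.37, and Kit moved from 1.16 to 0.44. For 7 B cell genes, with Igll1 alone above background, the sum was 794 on replicate 2 and 429 on replicate 1. Igll1 itself had 167 on replicate 2 and 173 on replicate 1 (-0.04), so the higher sum rests on genes not above background on both arrays. Igll1, Kit and Ccr2 each had at least 1 other probe set below the limit on both arrays. For Kit this was 1415900_a_at, with 45.2 on replicate 2 and 26.4 on replicate 1. The other 5 lists (T and NK, erythroid, megakaryocyte, eosinophil and mast, and stromal cells) had sums between 510 and 992 on replicate 2, and between 483 and 1001 on replicate 1. Of their genes, Cd3d, Klf1, Epor, Tfrc, Itga2b, Siglecf, Col1a2 and Kdr were above background. No gene of these lists was at 0, since no signal on either array was. Their part in the annexin differences was not tested.

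Genes whose products act with annexins were read from 8 lists of 74 genes, of which 67 were measured. Of these, 34 were above background (50.7%), where 40.4% of all genes were. The lists too were chosen with earlier results of these data known, so this share is only descriptive. On its brightest probe set, none of the 34 differed over 2-fold (all genes 5.40%), and their median difference was 0.07, as it was over all genes. A second probe set of Gca, 1424698_s_at, was above background on both arrays and was 2.16-fold higher on replicate 2. Their range on the brightest probe sets was -0.86 (Cd300a) to 0.93 (Plscr3). The other Plscr3 probe set, 1431081_a_at, was also above background on both arrays but had the opposite sign, at -0.22.

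**Figure D4:**
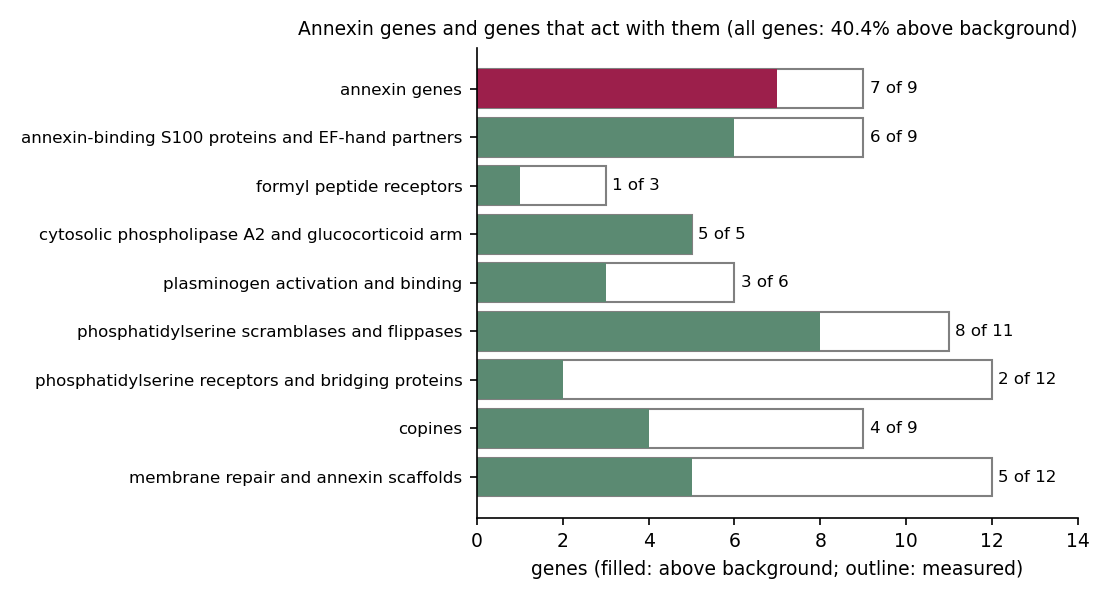
Number of genes above background on both arrays (filled) out of those measured (outline) for the annexin genes and for each of the 8 lists of genes that act with them. Annexin genes stand at 7 of 9, and the lists run from 5 of 5 for the phospholipase and glucocorticoid genes to 2 of 12 for phosphatidylserine receptors.

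Among the small calcium-binding partners, 6 of 9 measured genes were above background (66.7%, all genes 40.4%). S100a10, whose product is the light chain of the annexin A2 complex, was not above it on any of 3 probe sets. Its probe set 1439348_at had 87.4 on replicate 2 and 113 on replicate 1, and so passed the limit on replicate 1 alone. The others stayed low, 1416762_at with 5.59 on replicate 2 and 4.56 on replicate 1, and 1456642_x_at with 2.43 on replicate 2 and 12.3 on replicate 1. S100a4, another partner of annexin A2, had 120 on replicate 2 and 102 on replicate 1 and was not above background. S100a6, whose product binds several annexins, had a log2 signal of 14.60 ± 0.09 (SD, n = 2). Sri (sorcin, a partner of annexin A7) had 13.13 ± 0.04, and Pdcd6 (ALG-2, which binds annexins A7 and A11) had 11.31 ± 0.26 (SD, n = 2). S100a11, whose product binds the annexin A1 tail, was not analysed here.

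Around annexin A1, the receptor gene Fpr2 was above background with signals of 24921 on replicate 2 and 20461 on replicate 1 (14.46 ± 0.20, SD, n = 2). Fpr-rs3 and Fpr-rs4 were not, so 1 of 3 measured receptor genes was above background (33.3%, all genes 40.4%). Fpr-rs4 passed the limit on replicate 2 alone, with 163 on replicate 2 and 99.1 on replicate 1. Fpr1 and Fpr3 were not analysed here. All 5 measured genes of the phospholipase and glucocorticoid list were above background (all genes 40.4%). They include Pla2g4a, the cytosolic phospholipase A2 that annexin A1 is known to inhibit, at 9.73 ± 0.10, the glucocorticoid receptor gene Nr3c1 at 10.94 ± 0.26, its target Tsc22d3 at 12.38 ± 0.11 and Trpm7, the channel kinase that phosphorylates annexin A1, at 10.69 ± 0.06 (SD, n = 2). On the brightest probe sets, their differences between the arrays ran from -0.83 (Pla2g6) to 0.14 (Pla2g4a). Another Trpm7 probe set above background on both arrays, 1431355_s_at, was at 0.83.

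For plasminogen, which annexin A2 binds, 3 of 6 measured genes were above background. Plaur, the urokinase receptor gene, had 12.15 ± 0.09, the plasminogen receptor gene Plgrkt 8.53 ± 0.28 and the urokinase gene Plau 8.05 ± 0.61 (SD, n = 2). Plg, Plat and Serpinb2 were not above it.

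Phosphatidylserine, the lipid to which annexin A5 binds, is moved across membranes by scramblases and flippases. Of the 11 measured genes for these proteins, 8 were above background (72.7%, all genes 40.4%). They include Plscr1 at 11.46 ± 0.41, the scramblase genes Ano6 at 9.79 ± 0.24 and Xkr8 at 8.18 ± 0.58, and Tmem30a, the flippase subunit gene, at 12.38 ± 0.12 (SD, n = 2). Of 12 genes for receptors and bridging proteins that recognise the lipid on dying cells, 2 were above background (16.7%, all genes 40.4%). They were Cd300a at 10.64 ± 0.60 and Mfge8 at 8.22 ± 0.08 (SD, n = 2). Mertk, Axl, Tyro3, Gas6, Pros1, Timd4, Havcr1, Stab1, Stab2 and Adgrb1 were not above background.

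Copines are another family of calcium-dependent phospholipid-binding proteins, and 4 of 9 were above background (44.4%, all genes 40.4%). Cpne3 had 13.23 ± 0.57, with signals of 12774 on replicate 2 and 7275 on replicate 1, and Cpne1 had 11.59 ± 0.17, Cpne2 9.99 ± 0.24 and Cpne5 8.29 ± 0.12 (SD, n = 2). Of the membrane repair and scaffold genes, 5 of 12 were above background (41.7%, all genes 40.4%). They were Chmp4b at 11.74 ± 0.11, Pdcd6ip at 9.97 ± 0.00, Rasa1 at 9.90 ± 0.15 and Otof at 7.26 ± 0.03 (SD, n = 2), and Tsg101. Otof, known from hair cells of the ear, was near the limit, with 151 on replicate 2 and 155 on replicate 1. Dysf, the repair protein dysferlin, had 56.3 on replicate 2 and 83.9 on replicate 1, and all 4 probe sets of Ahnak, the scaffold of the annexin A2 complex, were below the limit on both arrays.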

How the data were processed

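Total RNA (200 ng) was amplified and biotin-labelled with an Affymetrix 3′ kit, per the labels' protocols, and each experiment filled 1 array. Per the submitters' processing notes the authors used MAS5, and the deposited values are linear intensities of 45101 probe sets; settings and detection calls of MAS5 are not given in these sources. Checked on the values, the mean without the lowest and highest 2% was 250.0 on both arrays. Precision is limited by there being 2 arrays.

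Gene names come from the platform annotation at GEO, which gave 1 gene to 34958 probe sets, several to 932 (not used for genes) and none here to 9211. All 20 annexin probe sets had their gene identifier in the RefSeq table, with no symbol changed. Signals were floored at 1 before log2. The brightest probe set is the one with the highest mean log2 signal; in 10 of 7354 genes above background it was not itself above the limit. Values were computed in Python 3.11.15 with pandas 2.3.3, and the procedure was tested on simulated data. With 1 group no test was made. The named genes are all 10 annexin genes and members of the 8 lists. The members and lists were chosen with earlier results of these data known. Alternatives were other background limits, scalings, probe set choices, 32 added to each signal, no filter, and each array alone.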

Additional observations from a re-analysis of the deposited data

Results flagged for a closer look

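Probe set 1418468_at, which lists Anxa11 together with Gm2260 and Gm2274, was left out of the gene values because it names 3 genes. Its signals were 1222 on replicate 2 and 1349 on replicate 1, above the background limits of 131 on replicate 2 and 108 on replicate 1, a signal in data outside the gene comparisons. Which of the 3 genes it reads was not tested.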

How the results depend on the processing

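The 7 annexin genes and 11 annexin probe sets above background became 4 and 7 without probe sets ending in _x_at, _s_at or _a_at. This left 6 annexin genes to read, and of all genes left 37.3% were above background. With either array left out, 7 to 8 annexin genes and 12 annexin probe sets on each remaining array were above background. So were 36 to 37 genes of the 8 lists (34 on both arrays). Anxa8 was added on replicate 2 alone. Of all genes, 44.2% were above background on replicate 2 alone and 46.3% on replicate 1 alone. No annexin gene above background differed over 2-fold, but 1 did with the mean of all probe sets and 2 without a background filter (Anxa8 and Anxa9). That 1 was Anxa2, at 1.45, through a probe set below background. Scaling to the hybridisation controls turned the annexin median difference of 0.39 to -0.34, and there Anxa1 was at -0.15, Anxa3 at -0.10, Anxa4 at -0.34 and Anxa5 at -0.46, and the median of all genes was -0.65. Genes over 2-fold apart numbered 397 of 7354 above background, 1588 with the control scaling, and 4931 of 18194 without a filter. The annexin median was 0.60 without the 3 kinds of probe set and 0.62 with the mean of all probe sets, and 0.26 to 0.48 under the other settings that kept its sign. With the mean of all probe sets 5 annexin genes were above background, where 31.0% of all genes were. Over all alternatives, the lowest count of the 8 lists was 26 of 56 genes read, without the 3 kinds of probe set (all genes 37.3%). The highest was 38 of 67, with the 90th percentile of the receptor probe sets as the limit (all genes 45.4%). No paired analysis was possible because the series has 1 group. Near the limit, 2 arrays do not settle a call, as for Anxa4, Anxa6 and Anxa8.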
